A study of Homo sapiens with 22 samples.

Results

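The proteasome subunit genes were taken as every protein-coding GENCODE gene on the hg19 build whose name begins with PSMA, PSMB, PSMC, PSMD, PSME, PSMF or PSMG followed by a number. That rule gave 50 of 20176 protein-coding genes, spread over 17 chromosomes. Of these, 48 encode subunits, activators, an inhibitor or assembly chaperones of the proteasome. The other 2, PSMC3IP and PSME3IP1, match the names but encode no subunit: PSMC3IP works in meiotic recombination and PSME3IP1 binds the activator PSME3.

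N-MYC and WDR5 binding was mapped by ChIP-seq in CHP-134 and IMR-32, human neuroblastoma cell lines with amplified MYCN. CHP-134 cells received DMSO or a compound for 4 h, with 3 libraries per antibody and treatment. The compound carries different names in the labels (C38b in sample titles, 419C91 as the agent), so it is called the compound here. IMR-32 cells were untreated and gave 2 N-MYC libraries and 2 WDR5 libraries. No group carries an engineered allele in its labels, and the 6 IgG samples were not analysed here. Each cell line is 1 model, sequenced on its own platform, so line and sequencing run cannot be told apart.

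N-MYC is the MYC family transcription factor that binds DNA as a dimer with MAX, preferentially at the E-box, and is the driver of this form of neuroblastoma. WDR5 is a chromatin adaptor with a surface that binds MYC proteins and another through which histone methyltransferase complexes and other partners dock. The proteasome degrades ubiquitin-tagged proteins: alpha and beta subunits stack into the barrel-shaped 20S core, the 19S particle with its ATPases and non-ATPase subunits recognises and unfolds substrates, dedicated chaperones assemble both, and activators cap the core in place of 19S.

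A gene was scored in a library when the middle of a deposited peak lay within 1 kb of any of its transcription start sites (TSSs). Its value was the percentile of that peak's fold enrichment within its own list, where 100 is the strongest peak of the library, and the strongest peak counted where a gene had several. A gene was called bound in a group when at least 2 libraries listed it. The lists differed in length. The DMSO lists held 15286, 9125 and 12283 N-MYC peaks and 4891, 1758 and 1671 WDR5 peaks. The compound lists held 11249, 2964 and 12313 N-MYC peaks and 5973, 15 and 401 WDR5 peaks, and the IMR-32 lists held 8286 and 5242 N-MYC peaks and 1693 and 1258 WDR5 peaks. Read depth is unknown from the lists, so a gene missing from a short list is described as not listed and not as unbound.

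N-MYC peaks were frequent at proteasome genes. In CHP-134 cells with DMSO, 30, 22 and 23 of the 50 genes had an N-MYC peak in replicates 1, 2 and 3, against 43.8%, 29.8% and 37% of all protein-coding genes in the same lists. Dividing each library's share of proteasome genes by its share of all genes gave ratios of 1.37, 1.48 and 1.24, with a mean of 1.36 ± 0.118 (SD, n = 3). The ratio was above 1 in 15 of the 16 lists, the exception being the WDR5 list of 15 peaks, which held no proteasome gene. In IMR-32 cells 17 of the 50 genes had an N-MYC peak in each library, against 25.4% and 17.7% of all genes, for ratios of 1.34 and 1.92. All protein-coding genes include genes these cells may not express, and expression is not measured in these lists, so these ratios are a description with no test.

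**Figure D1:**
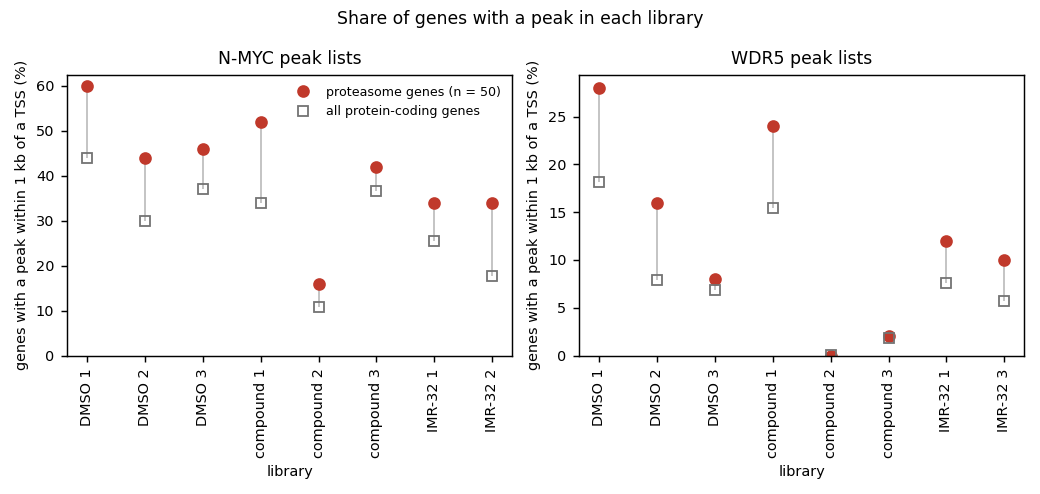
Percent of the 50 proteasome genes (filled circles) and of all protein-coding genes (open squares) with a peak within 1 kb of a TSS, for each N-MYC library (left) and WDR5 library (right); lines join the values of a library. The proteasome genes lie above all genes in 15 of the 16 lists, and the gap is widest at compound replicate 1 for N-MYC.

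Called bound by N-MYC in CHP-134 cells with DMSO were 24 proteasome genes (48.0%), against 36.9% of all genes, and 18 of them (36.0%) were in all 3 lists, against 25.9% of all genes. In IMR-32 cells 13 were bound (26.0%), against 14.9% of all genes. N-MYC was in none of the 8 N-MYC lists for 14 proteasome genes, 28.0% against 49.1% of all genes: PSMA8, PSMB1, PSMB4, PSMB6 to PSMB11, PSMC1, PSMD5, PSMD10, PSMD11 and PSMD13. WDR5 was called at far fewer: 6 in CHP-134 cells with DMSO (12%), against 8.07% of all genes, and 5 in IMR-32 cells (10.0%), against 4.62%. With 1 canonical TSS per gene, WDR5 was at 4 with DMSO (8.0%, against 7.39%) and 3 in IMR-32 cells (6.0%, against 4.22%). WDR5 was in none of its 8 lists for 27 proteasome genes, 54.0% against 70.9% of all genes, and 10 genes, 20% against 46.9%, were in no list of either protein.

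**Figure D2:**
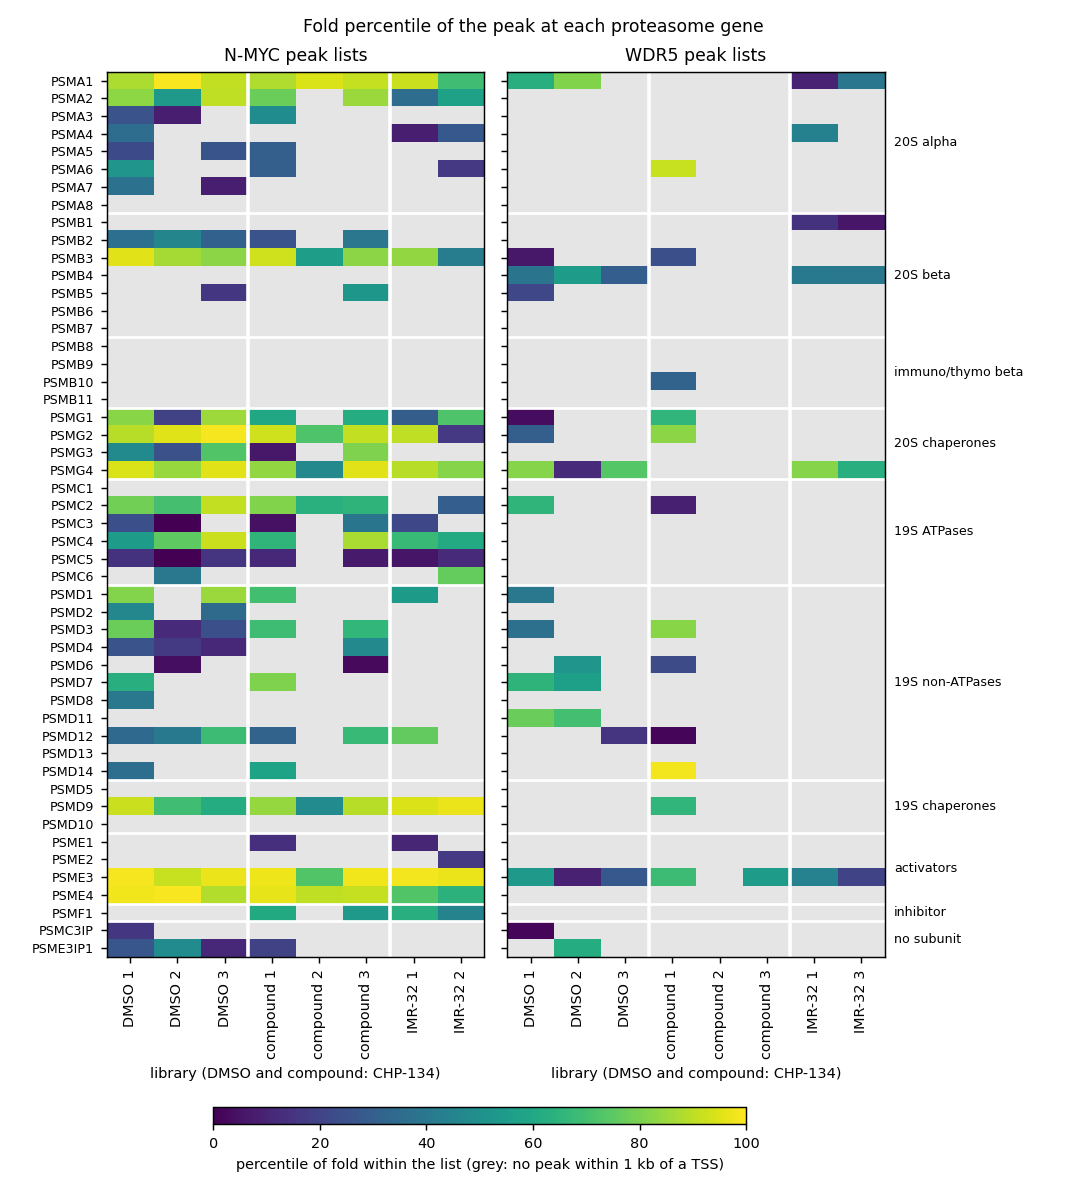
Percentile of fold within the list for the peak at each proteasome gene (rows, grouped by role) in each of the 8 N-MYC libraries (left) and 8 WDR5 libraries (right); grey marks no peak within 1 kb of a TSS. The 4 genes of the 20S chaperones are filled in every DMSO library for N-MYC, and the immunoproteasome and thymoproteasome rows are grey for N-MYC throughout.

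The alpha ring of the 20S core was bound by N-MYC at 5 of its 8 genes in CHP-134 cells with DMSO: PSMA1, PSMA2, PSMA3, PSMA5 and PSMA7. PSMA1 had percentiles of 87.6, 99.2 and 90.7, and PSMA2 83.0, 53.9 and 90.6. PSMA3 was listed in replicates 1 and 2 at 25.4 and 8.46 and PSMA7 in replicates 1 and 3 at 37.6 and 8.30, so the ring held some of the highest and some of the lowest values among the bound genes. PSMA8, the alpha subunit of the testis, was in no list of either protein. PSMA4 was bound in IMR-32 cells, at 8.37 and 27.5, and was listed in 1 of the 3 DMSO libraries of CHP-134, at 35.6.

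The beta ring, which carries the catalytic sites, was bound at 2 of 7 constitutive genes, PSMB2 and PSMB3. PSMB3 was in all 8 N-MYC lists, with percentiles of 95.6, 86.5 and 82.6 in CHP-134 cells with DMSO and 83.6 and 41.9 in IMR-32 cells. PSMB2 was listed in the 3 DMSO libraries at 36.4, 45.6 and 31.0. Of the catalytic subunits, PSMB5 was in 1 of the 3 DMSO lists at 15.8, and PSMB6 and PSMB7 were in none of the 8 N-MYC lists. None of the 4 interferon-inducible or thymus-specific beta subunits, PSMB8, PSMB9, PSMB10 and PSMB11, was in an N-MYC list.

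The 4 chaperones that assemble the 20S core, PSMG1 to PSMG4, were all bound by N-MYC in CHP-134 cells with DMSO, and 3 of the 4 were bound in IMR-32 cells. PSMG2 had percentiles of 89.4, 95.2 and 98.7, and PSMG4 94.2, 84.6 and 95.5. PSMG1 was at 82.3, 19.3 and 85.4, so 1 library lay far below the other two, and PSMG3 was at 47.6, 24.9 and 72.8. With 4 genes in the group this count is a description.

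In the 19S particle, N-MYC was bound at 4 of the 6 ATPases, PSMC2, PSMC3, PSMC4 and PSMC5, which unfold substrates and open the gate of the core. PSMC2 was at 78.7, 70.6 and 91.0, and PSMC4 at 55.1, 75 and 92.0. PSMC5 was in all 3 DMSO lists with percentiles of 14.6, 0.0329 and 15.3, the lowest mean of the bound genes at 9.98, and stayed low in IMR-32 cells at 5.54 and 11.8. Of the 11 non-ATPase subunits 5 were bound, PSMD1, PSMD2, PSMD3, PSMD4 and PSMD12, and none was bound in IMR-32 cells, where PSMD1 was in 1 list at 54.6 and PSMD12 in 1 at 76.0. PSMD1, a scaffold of the particle, was listed in replicates 1 and 3 at 81.4 and 85.0. PSMD4, a ubiquitin receptor, was at 25.7, 17.1 and 11.2.

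Among the 19S chaperones PSMD5, PSMD9 and PSMD10, PSMD9 alone was bound. It was in all 8 N-MYC lists, at 91.9, 69.2 and 62.0 in CHP-134 cells with DMSO and at 94.8 and 97.2 in IMR-32 cells. Of the 4 activators, PSME3 and PSME4, which cap nuclear proteasomes, were bound in every group. PSME3 had N-MYC percentiles of 98.8, 91.6 and 97 with DMSO and 98.3 and 97.2 in IMR-32 cells, and PSME4 had 97.8, 98.9 and 88.4 with DMSO and 72.8 and 64.2 in IMR-32 cells. PSME1 and PSME2, the interferon-inducible pair, were in no DMSO list of N-MYC. The inhibitor PSMF1 was in no DMSO list but in both IMR-32 lists, at 62.9 and 44.8, and PSMF1 and PSMA4 were the 2 genes bound in IMR-32 cells and not in CHP-134 cells with DMSO.

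Over the 24 bound genes the mean DMSO percentile ran from 9.98 to 95.8 with a median of 55.3. The highest means were at PSME3 (95.8), PSME4 (95.0), PSMG2 (94.5), PSMA1 (92.5) and PSMG4 (91.4), and the lowest at PSMC5 (9.98), PSMC3 (12.3), PSMA3 (16.9), PSMD4 (18.0) and PSMA7 (22.9). The median over the listed proteasome genes was 49.9, 46.9 and 72.8 in the DMSO lists, and over all listed genes it was 59.3, 54.4 and 56.9. The 7 proteasome genes in all 8 N-MYC lists were PSMA1, PSMB3, PSMD9, PSME3, PSME4, PSMG2 and PSMG4. No share of all protein-coding genes in all 8 lists is given beside them. Their number is therefore a description and does not show that proteasome genes recurred more often than others.

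The strongest summit of a gene in a group was taken from the library where its counted peak had the lowest q-value. That was not always the library with the highest percentile. The E-box letters CACGTG, searched on the forward strand since the palindrome reads the same on both, were found within 100 bp of the strongest DMSO summit at 4 of the 24 N-MYC bound proteasome genes (16.7%), against 26.9% of the 7453 bound genes of all kinds. The 4 were PSMB3, PSMD9, PSME3 and PSME3IP1. The first 3 sites are shown because these genes were in all 8 N-MYC lists. Each line gives the forward strand of hg19, 12 bases to each side, with CACGTG in capitals.
PSME3, chr17:40985360-40985389: ggctgcgcagcgCACGTGcacagcctcgca
PSMB3, chr17:36908744-36908773: gtttcaccagccCACGTGcgcgcaggctcc
PSMD9, chr12:122326553-122326582: tcaccacaggcgCACGTGttccggcagggc

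At PSME3 the site began 9 bases after the summit at position 40985363 of chromosome 17, within a peak from 40984906 to 40986122 that covered the start of the gene. At PSMB3 it began 9 bases before the summit, 229 bp upstream of the TSS, and at PSMD9 40 bases before the summit. PSME4, PSMG2, PSMA1 and PSMG4, which with PSME3 had the highest mean percentiles, had no CACGTG within 100 bp of the summit. At PSMC4 the summit differed between lines: it lay 262 bp upstream of the TSS in CHP-134 cells with DMSO, with no CACGTG within 100 bp, and 438 bp upstream in IMR-32 cells, where CACGTG began 19 bases after it. The IMR-32 site at PSMC4 is shown in the same way.
PSMC4, chr19:40476641-40476670: ttggatcagcgcCACGTGgagaccttaccc

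In the 300 bases from 250 upstream to 50 downstream of the canonical TSS, CACGTG was found at 4 of 50 proteasome genes (8.0%) and at 8.76% of the 19883 genes with a canonical start. These 4 were all N-MYC bound: 4 of 24 bound genes held the letters and 0 of 26 genes not bound, against 15.5% and 4.76% for all genes. Other motifs were counted on both strands in the same windows. CCGGAAG, the core recognised by ETS factors, was in 20 of 50 (40.0% against 14.1%). It was in 7 of the 24 N-MYC bound genes (29.2%) and 13 of the 26 not bound (50.0%), against 19.8% and 10.7% for all genes. TGACNNNGC, the core of the antioxidant response element read by NFE2L1 and NFE2L2, was in 14 of 50 (28.0% against 14.0%). CCAAT was in 22 (44% against 36.0%), TGCGCA in 6 (12% against 10.8%) and the E-box variant CACGCG in 6 (12% against 15.3%). A match is a description of the letters and no evidence of a factor there.

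The strongest N-MYC summit lay upstream of the nearest own TSS at 21 of the 24 bound genes, at the TSS at 1 and downstream at 2, from 482 bp upstream to 114 bp downstream with a median of 111 bp upstream. Summits of genes in general also lay upstream. With negative values upstream, the median summit in DMSO replicates 1, 2 and 3 was at -69, -107 and -147 bp for listed proteasome genes. Over all listed genes it was at -31, -34 and -35 bp. Several of the bound proteasome promoters are shared. Another coding gene started within 1 kb of a TSS at 15 of the 50 proteasome genes (30%), against 18.4% of all genes, and this held for 10 of the 24 bound genes and 5 of the 26 others. Any annotated TSS counted, not only the bound one. At PSME3 the strongest DMSO summit lay 9058 bp from the TSS of its neighbour BECN1. Bound genes in general also had such neighbours more often. No other coding TSS lay within 1 kb at 16454 of all 20176 genes and at 5409 of the 7453 N-MYC bound genes. At 6 of the 24 (25.0%, against 12.9% of all bound genes) the summit was nearer to the TSS of another coding gene than to the proteasome gene's own: PSMA1 (next to PDE3B), PSMA2 (MRPL32), PSMC2 (DNAJC2), PSME3IP1 (RSPRY1), PSME4 (ACYP2) and PSMG2 (SPIRE1). At PSMA2 the summit was 30 bp from the start of MRPL32 and 221 bp from that of PSMA2, and at PSMC2 it was 22 bp from DNAJC2. A peak between paired starts cannot be told apart as belonging to either gene. Among the 35 proteasome genes with no other coding TSS within 1 kb, 14 were bound (40.0%), against 32.9% of such genes overall.

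Proteasome genes had a median of 3 TSSs, against 2 for all genes, and at PSMA1, PSMG2 and PSMC2 the strongest N-MYC summit with DMSO lay over 1 kb from the canonical TSS. At PSMA1 the strong N-MYC peak lay at an alternative start 123231 bp upstream of the canonical TSS, beside PDE3B, in all 8 lists, while 2 DMSO lists also held a weak peak at the canonical TSS, at percentiles of 28.8 and 23.2. At PSMG2 the strongest peak of DMSO replicates 2 and 3 lay 44677 bp upstream of the canonical TSS, beside SPIRE1. That upstream peak was in all 6 N-MYC lists of CHP-134 and in neither IMR-32 list, and the peak at the canonical TSS was in the 3 DMSO lists (89.4, 22.0 and 42.4) and both IMR-32 lists (90.6 and 16.7). At PSMC2 all 7 N-MYC lists that held the gene had the peak 2789 to 2928 bp upstream of the canonical TSS. With 1 canonical TSS per gene, 23 proteasome genes were bound by N-MYC in CHP-134 cells with DMSO (46.0%, against 34.9% of all genes), and PSMC2 was the gene lost.

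WDR5 was bound in CHP-134 cells with DMSO at PSMA1, PSMB4, PSMD7, PSMD11, PSME3 and PSMG4, and in IMR-32 cells at PSMA1, PSMB1, PSMB4, PSME3 and PSMG4. PSME3 was in 7 of the 8 WDR5 lists, at 53.7, 9.04 and 27.5 with DMSO and 44.2 and 20.7 in IMR-32 cells. Each of these WDR5 percentiles was below each of the gene's N-MYC percentiles, though the ranks come from different lists. PSMG4 was at 82.0, 11.9 and 73.7 with DMSO and 81.7 and 62.5 in IMR-32 cells. PSMB1 was listed in IMR-32 cells at 14.5 and 6.16, with summits 812 and 630 bp upstream of its TSS.

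PSMB4, a structural beta subunit, had WDR5 in all 3 DMSO lists (38.4, 54.8 and 29.8) and both IMR-32 lists (40.4 and 39.9) and N-MYC in none of the 8 N-MYC lists. PSMD11 had WDR5 in DMSO replicates 1 and 2 (77.2 and 70.2) and likewise no N-MYC list. PSMD7 had WDR5 in replicates 1 and 2 (65.0 and 56.4), with N-MYC in DMSO replicate 1 (62.5) and compound replicate 1 (80.6). Thus 3 of the 6 WDR5 bound proteasome genes were also N-MYC bound (50.0%), against 90.5% of all WDR5 bound genes, and 3 of the 24 N-MYC bound genes had WDR5 (12.5%), against 19.8%. The WDR5 summit of PSMD7 is shown because N-MYC was not called bound there. It is given with 50 bases to each side on the forward strand of hg19, and no capitals appear because the window holds neither CACGTG nor CACGCG.
PSMD7, chr16:74330574-74330674: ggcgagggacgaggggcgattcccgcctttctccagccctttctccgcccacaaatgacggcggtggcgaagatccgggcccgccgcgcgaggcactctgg

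PSMA1, PSME3 and PSMG4 were bound by both proteins in CHP-134 cells with DMSO (6.0% of the proteasome genes, against 7.31% of all genes), and the same 3 in IMR-32 cells (6.0%, against 2.47%). The proteins were not always at the same start. At PSME3 the strongest summits were 87 bp apart, the peaks overlapped and both lay within 1 kb of the canonical TSS, as did the strongest summit of every list that held the gene. A further N-MYC peak of compound replicate 3, at a percentile of 2.36, lay 9011 bp upstream. At PSMA1 the strongest summits were 13 bp apart at the alternative start, but WDR5 was there in DMSO replicate 2 and IMR-32 replicate 3, and at the canonical TSS in DMSO replicate 1 and IMR-32 replicate 1. At PSMG4 the strongest N-MYC summit, by q-value that of replicate 1, lay in exon 1, 146 bp downstream of the canonical TSS. Every WDR5 peak lay at an alternative start 27140 bp upstream. The strongest WDR5 summit by q-value was that of replicate 3, so that the strongest summits were 27689 bp apart. A weaker N-MYC peak stood at that alternative start in the 3 DMSO lists, at 79.6, 20.1 and 68.3, with summits 538, 386 and 397 bp from the WDR5 summit of the same replicate number. The median distance over all genes bound by both was 123 bp. With 1 canonical TSS per gene, PSME3 was the 1 proteasome gene bound by both in either line. That is 2.0%, against 6.67% of all genes in CHP-134 cells with DMSO and 2.21% in IMR-32 cells. The WDR5 site at the alternative start of PSMG4 is shown because it recurs in both lines; it holds neither CACGTG nor CACGCG.
PSMG4, chr6:3231588-3231688: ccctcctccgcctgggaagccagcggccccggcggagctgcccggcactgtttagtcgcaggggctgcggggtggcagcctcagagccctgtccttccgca

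**Figure D3:**
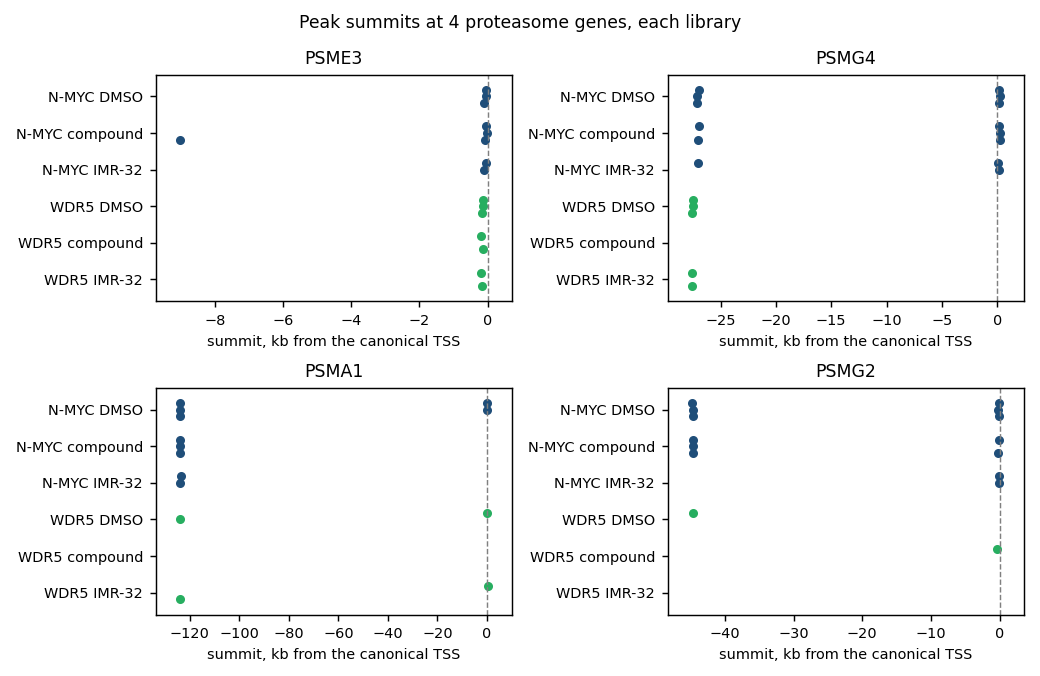
Distance in kb of every peak summit from the canonical TSS (dashed line) at PSME3, PSMG4, PSMA1 and PSMG2, 1 point per peak, with the libraries of a group stacked; blue is N-MYC and green is WDR5, DMSO and compound are CHP-134, and negative values are upstream. At PSME3 all summits lie within 1 kb of the canonical TSS except 1 weak N-MYC summit of compound replicate 3, 9011 bp upstream, and at PSMG4 every WDR5 summit lies upstream near the alternative start, 27140 bp from the canonical TSS or slightly farther.

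The comparison of lines asked whether the same proteasome genes were bound in IMR-32 cells. Of the 13 N-MYC bound in IMR-32 cells, 11 were bound in CHP-134 cells with DMSO (84.6%, against 95.3% of all genes). Of the 24 bound in CHP-134 cells, 11 were bound in IMR-32 cells (45.8%, against 38.6%), whose lists were shorter. Neither measure over the libraries differed beyond the spread between them. The relative N-MYC share was 1.63 ± 0.414 (SD, n = 2) in IMR-32 and 1.36 ± 0.118 (SD, n = 3) in CHP-134 cells with DMSO (exact permutation test, two-sided, p = 0.50), and for WDR5 it was 1.67 ± 0.120 (SD, n = 2) against 1.58 ± 0.438 (SD, n = 3; exact permutation p = 0.80). The smallest p that 3 libraries against 2 allow is 0.1. All 10 such comparisons had an adjusted p of 1.00 in exact permutation tests.

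Of the genes with an N-MYC peak in all 5 DMSO and IMR-32 lists, limma called 0 of 2602 different at an adjusted p under 0.05 (0%), and 360 had an unadjusted p under 0.05. The 11 proteasome genes among them included 9 with a lower percentile in IMR-32, with a median difference of -11.3 against -6.73 for all genes tested, and 1 had an unadjusted p under 0.05. That gene was PSME4, which was lower in IMR-32 (difference -26.5 percentile points, SE 6.64, 95% interval -44.1 to -8.89, limma adjusted p = 0.225), with both IMR-32 libraries below all 3 DMSO libraries. PSMD9 had the largest difference upwards (21.6, SE 10.7, limma adjusted p = 0.481), with both IMR-32 libraries above all 3 of CHP-134. PSMG2 had the largest downwards (-40.8, SE 23.2, limma adjusted p = 0.527), where the IMR-32 libraries stood at 90.6 and 16.7 and the upstream start was not listed. That difference sets unlike starts against each other, since the values of DMSO replicates 2 and 3 came from the upstream start. At the canonical TSS PSMG2 was at 89.4, 22.0 and 42.4 with DMSO, so it shows no fall at the same start. PSMA2 (-29.4, limma adjusted p = 0.476) and PSMB3 (-25.5, limma adjusted p = 0.519) were the other large negative differences, and none of these passed the threshold, and PSME3 was the other gene above 0 (1.95, limma adjusted p = 0.912). A percentile also depends on list length, and the IMR-32 lists were shorter. As log2 folds centred on each library's median over the tested genes, the differences ran from -0.73 at PSME4 to 0.94 at PSMD9. On that scale PSMC5 was at 0.40 and PSMC4 and PSMG1 at 0.00, though their percentiles were lower. The other genes kept the sign of their percentile difference.

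The comparison with the compound asked whether N-MYC or WDR5 at proteasome genes differed after 4 h. It shares its DMSO libraries with the comparison of lines. N-MYC was bound at 18 proteasome genes with the compound (36.0%), against 29.2% of all genes, and replicate 2 of that group held 2964 peaks, the shortest N-MYC list. Of the 24 genes bound with DMSO, 17 were bound with the compound (70.8%, against 75.5% of all genes). The 7 not bound were PSMA3, PSMA5, PSMA7, PSMD1, PSMD2, PSMD4 and PSME3IP1, of which 2 had been in all 3 DMSO lists and 5 in 2 of them, and their mean DMSO percentiles ran from 16.9 to 83.2. PSMF1 was bound with the compound and not with DMSO, at 60.6 and 53.7 in replicates 1 and 3. Thus 17 of the 18 proteasome genes bound with the compound were also bound with DMSO, as were 5628 of the 5889 such genes overall. With a library without a peak ranked below any value, none of the 24 genes had all of its compound values below all of its DMSO values, 0 of 24 against 7.41% of all DMSO bound genes. PSMD1, missing from DMSO replicate 2, was at 69.7 in its 1 compound list, below both of its DMSO values.

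The relative N-MYC share was 1.40 ± 0.214 with the compound and 1.36 ± 0.118 with DMSO (SD, n = 3 each, exact permutation p = 0.80), and the median percentile over listed proteasome genes was 66.1 ± 2.74 against 56.5 ± 14.1 (SD, n = 3 each, exact permutation p = 0.400). The smallest p that 3 libraries against 3 allow is 0.1. With each N-MYC list reduced to its 2964 strongest peaks, 10, 9 and 11 proteasome genes were listed with DMSO and 10, 8 and 10 with the compound. Of the genes with a peak in all 6 lists limma called 0 of 2037 (0%), with 55 at an unadjusted p under 0.05. The 8 proteasome genes among them, PSMA1, PSMB3, PSMC2, PSMD9, PSME3, PSME4, PSMG2 and PSMG4, all had a lower mean percentile with the compound, with a median difference of -7.77, but so did most genes, with a median of -9.93 over all 2037. The largest of the 8 was PSMG4 (difference -16.0, SE 13.5, 95% interval -49.8 to 17.8, limma adjusted p = 0.872), whose compound percentiles were 83.6, 47.2 and 95.5. PSMB3 (-11.3), PSMC2 (-10.3) and PSMG2 (-9.13) followed, each with a limma adjusted p of 0.872. A percentile also depends on list length, and the lists differed in length. The folds of the 8 genes were also compared as log2 values centred on each library's median over the tested genes. Those differences ran from -0.22 at PSMG2 to 0.26 at PSMD9.

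Without both libraries of replicate 2, limma called 0 of 5354 genes, with 160 at an unadjusted p under 0.05. Of the 16 proteasome genes then tested 11 were lower with the compound, with a median difference of -1.67 against -3.41 for all genes. PSMG1 had the 1 unadjusted p under 0.05 among them (difference -23.2, 95% interval -42.5 to -3.88, limma adjusted p = 1.000), from DMSO percentiles of 82.3 and 85.4 to 59.4 and 62.0. In DMSO replicate 2, left out of that fit, PSMG1 was at 19.3. The next largest falls were at PSMG3 (-16.7), PSMC2 (-11.9) and PSMA2 (-5.50). The largest rises were at PSMD3 (16.7), PSMD9 (9.60) and PSMC4 (2.69). The smallest differences were at PSME3 (-0.256), PSMA1 (0.553) and PSME4 (0.679).

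**Figure D4:**
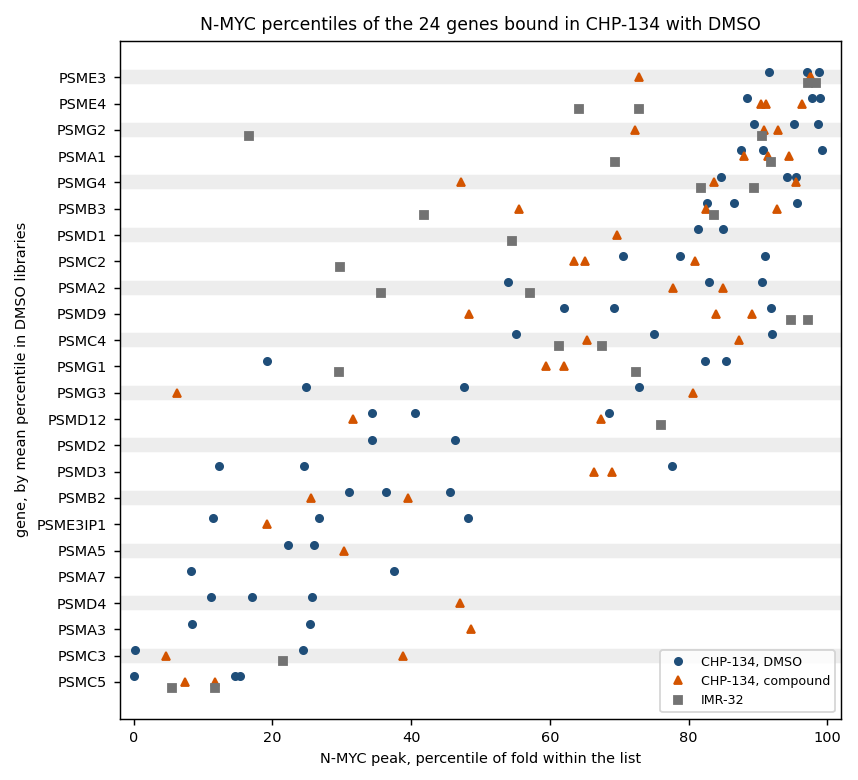
Percentile of fold of the N-MYC peak within its list (horizontal axis) in each library for the 24 proteasome genes bound in CHP-134 cells with DMSO (rows, by mean DMSO percentile); circles are DMSO, triangles the compound and squares IMR-32, and a library with no peak has no point. The compound points lie within or across the DMSO range at most genes, above it at PSMA3, PSMA5 and PSMD4, each listed once, and below it at PSMD1, also listed once. The IMR-32 points lie below that range at PSME4 and above it at PSMD9, and a single IMR-32 point lies below it at PSMC2 and PSMD1 and above it at PSMD12.

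For WDR5, the compound lists held 12, 0 and 1 proteasome genes, and PSME3 was the 1 gene bound (2.0%, against 1.28% of all genes), at 68.5 and 55.1 in replicates 1 and 3. The relative WDR5 share was 0.878 ± 0.799 with the compound and 1.58 ± 0.438 with DMSO (SD, n = 3 each, exact permutation p = 0.300), and the lists of 15 and 401 peaks set how many genes could be listed. The compound mean includes a share of 0 from the list of 15 peaks: the difference was -0.700 with it, -0.261 without that library and -0.0331 with replicates 1 and 3 of both groups, an alternative chosen after seeing the data. Compound replicate 1, with 5973 peaks, was longer than every DMSO list. It held 1 of the 6 proteasome genes bound by WDR5 with DMSO, PSME3 (16.7%, against 52.8% of all genes bound by WDR5 with DMSO), and 8 of its 12 proteasome genes were also in at least 1 DMSO list (66.7%, against 60.8% of all its genes). PSMD14, a deubiquitinase of the 19S particle, was at 98.4 there and PSMA6 at 91.5, with neither in a DMSO list of WDR5. This is 1 library with no replicate of like length, so no test was possible.

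Other genes of the proteasome pathway were read in the same way, beside shares over all genes of 36.9% for N-MYC and 8.07% for WDR5 in CHP-134 cells with DMSO and of 14.9% and 4.62% in IMR-32 cells. In CHP-134 cells with DMSO N-MYC was bound at 4 of 6 proteasome subunits and assembly factors named otherwise, ADRM1, AKIRIN2, PAAF1 and ECPAS, and at 10 of 11 deubiquitinases and receptors of the proteasome. It was bound at all 4 genes listed for the transcription factor pathway of proteasome genes, NFE2L1, NFE2L2, DDI2 and NGLY1. It was also bound at 4 of 8 genes for ubiquitin, its activating enzyme and the p97 segregase. NFE2L1, NFE2L2, AKIRIN2 and PAAF1 were bound by both proteins in both lines. The 8 subunits of the CCT chaperonin, another multi-subunit machine, were all N-MYC bound in both lines and 3 of the 8 had WDR5 in each, against 24 of 50 and 6 of 50 proteasome genes in CHP-134 cells with DMSO. These lists are small and their counts are a description with no test.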

How the data were processed

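The authors used Cutadapt for trimming, Bowtie2 for alignment to hg19 and MACS2 for peaks (q-value 0.05), library by library per the labels and methods, so replicates were not pooled. CHP-134 libraries were sequenced as single reads and IMR-32 libraries as paired ends. Versions are not given in the sources used here. The deposited peak lists give a fold over background (a ratio), −log10 p-value and −log10 q-value, a score made from the q-value and a summit offset. The percentile of fold was computed in each of 16 lists, and 6 IgG samples have no list analysed here. Genes came from GENCODE 44 (basic transcripts on hg19). Relative shares were compared with two-sided exact permutation tests over libraries, and percentiles with limma 3.58.1 in R 4.3.3 for genes present in every list, without a replicate block. Python 3.11.15, pandas 2.3.3, numpy 2.4.6 and scipy 1.17.1 did the rest, and the scripts were tested on simulated data. The rule for named genes took those with both proteins, the 5 highest and 5 lowest N-MYC bound genes, those in no N-MYC list, the 4 largest rises and falls in each limma fit and those bound in IMR-32 and not in CHP-134; further genes were named by role after their values were seen. The members and lists were chosen with earlier results of these data known.

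Replicate numbers come from the sample titles. Deviations of same-numbered DMSO and compound N-MYC libraries correlated at 0.59, 0.53 and 0.59 over 2037 genes, and those of N-MYC and WDR5 with DMSO at 0.30, 0.28 and 0.28 over 624 genes, so within CHP-134 the numbers pair the samples. The printed compound tests, standard errors and intervals did not use this pairing, so they include the spread between pairs. With a replicate block, the limma adjusted p of PSMG4 for the compound was 0.614, against 0.872 without. A pairing by number between the lines was not tested. Per the labels each library pools 3 immunoprecipitations from identical samples, and the study's methods describe the ChIP-seq as independent repeats without tying libraries to cultures, so p-values measure the spread between these libraries, part of which may be technical. Intervals cover that spread alone, since the lists hold no read counts. Alternatives changed the distance, start set, peak threshold, list length, number of libraries and scale, and left out each library. A marker check of the cell type and 1 sequence are not reported here.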

Additional observations from a re-analysis of the deposited data

How the results depend on the processing

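Of 293 alternatives to 22 results, 30 turned the direction, 29 moved a count or value, and 234 did neither, which for a tested difference means only that its sign held. The exact permutation tests cannot go below p = 0.1 with 3 libraries against 3 or 2, so the 163 alternatives with such a test could not pass 0.05 and say nothing about stability. The causes were not tested.

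The N-MYC share, compound minus DMSO, became -0.0213 at 500 bp, -0.135 with 1 canonical TSS per gene and -0.0369 with equal numbers of peaks. Leaving out 1 library gave -0.0376 to 0.155. The N-MYC share, IMR-32 minus CHP-134, ran from -0.0266 to 0.558 without 1 library. The WDR5 share, IMR-32 minus CHP-134, became -0.0901 at 500 bp, -0.0497 with canonical TSSs and -0.166 at −log10 q of at least 5, and ran from -0.123 to 0.315 without 1 library. N-MYC minus WDR5 in CHP-134 became 0.0263 with canonical TSSs and ran from -0.424 to 0.0128 without 1 library. In IMR-32 it became 0.221 at 500 bp, 0.00506 at 2 kb and 0.289 with canonical TSSs, and ran from -0.328 to 0.256.

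The N-MYC median percentile, compound minus DMSO, was -7.91 over genes listed in every library. For IMR-32 minus CHP-134 it was -14.3 over those genes, -3.29 with equal numbers, -0.0847 as a mean and -7.62 with percentiles among genes in every list. The WDR5 median, IMR-32 minus CHP-134, became 0.637 at 500 bp, 8.62 with equal numbers, 10.3 over genes in every library and 0.370 with percentiles among such genes. It ran from -6.67 to 6.79 without 1 library. The replicate block also gave 6.79, because matching by number drops the CHP-134 library with no IMR-32 counterpart, as a leave-out setting does. The replicate block changed no call, with 0 genes called in each limma fit.

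Canonical TSSs left 3 proteasome genes with WDR5 in IMR-32 and 1 with both proteins in each line, and −log10 q of at least 5 left 3 with WDR5 in IMR-32. Leaving out genes with another coding TSS within 1 kb left 35 genes, so counts could not rise. Of these, 14 had N-MYC with DMSO (40.0%, against 32.9% of such genes overall), 10 with the compound (28.6% against 25.6%) and 6 in IMR-32 (17.1% against 12.5%). WDR5 was at 0 with the compound and 3 in IMR-32 (8.57% against 3.55%), and 1 had both in each line. PSME3 was left out through BECN1, whose TSS lay 9058 bp from its strongest DMSO N-MYC summit. With equal numbers, 12 had N-MYC with DMSO, 3 had WDR5 with DMSO and 3 in IMR-32; the equal-number count of WDR5 with the compound was not run because a list held 15 peaks. Asking for 1 library gave 17 with WDR5 and 15 with both for DMSO, 29 with N-MYC and 12 with WDR5 for the compound, and 21 with N-MYC in IMR-32. Asking for every library gave 3 with WDR5 for DMSO, and 8 with N-MYC and 0 with WDR5 for the compound. Without 1 library, N-MYC with the compound ranged from 8 (without replicate 1 or 3) to 18, WDR5 with DMSO from 3 (without replicate 1 or 2) to 6, and WDR5 with the compound from 0 (without replicate 1 or 3) to 1. On centred log2 folds limma called 10 genes between the lines.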

Other observations

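The neighbouring lists of the proteasome pathway were also read with the compound, as counts with no test. Over all genes, N-MYC was bound at 29.2% with the compound and 36.9% with DMSO, and 75.5% of the genes bound with DMSO were bound with the compound. N-MYC was bound in CHP-134 cells with the compound at 10 of 11 deubiquitinases and receptors of the proteasome, the same 10 as with DMSO. It was also bound at the same 4 of 4 genes of the transcription factor pathway of proteasome genes. It was bound at 5 of 8 CCT chaperonin subunits, against 8 with DMSO, and at 1 of 6 subunits and assembly factors outside the name pattern, PAAF1, against 4. NFE2L2 was the 1 gene of its list with WDR5 in 2 compound libraries, at percentiles of 74.8 and 77.6, after 96.5, 84.9 and 93.2 with DMSO. The shortest compound lists touch all of these counts.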
